A study of Mus musculus with 22 samples.

Results

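Complement was followed through 9 genes, of the 53379 genes counted, in sorted nuclei of the mouse hippocampus. The 9 were chosen by name, as a list drawn up with earlier results of these data known, and each gene was found in the table through the Ensembl identifier that GENCODE pairs with its symbol. They are C1qa, C1qb and C1qc, the chains of C1q, the C1r protease gene C1ra, the central components C4b and C3, the anaphylatoxin receptor genes C3ar1 and C5ar1, and Serping1, the gene of C1 inhibitor. All 9 passed the filter on low counts, as did 40714 genes in all.

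The left hippocampi came from adult male C57/BL6N mice killed 24 h after an injection above the right hippocampus. The injection was kainate, a glutamate receptor agonist that sets off status epilepticus, or NaCl in the sham group. All mice had been anaesthetized with medetomidine and ketamine, reversed with atipamezole, and had received buprenorphine, and kainate mice were kept only if they had convulsive seizures. Hippocampi of 8 mice per treatment were combined into 3 pools of unequal size, and nuclei were sorted on NeuN, a protein of neuronal nuclei. NeuN+ nuclei are here called neurons and NeuN- nuclei glia, a fraction that may also hold vascular nuclei and some neurons. Sham neurons, kainate neurons and kainate glia had 3 libraries each, numbered 1 to 3. Sham glia had 2, numbered 1 and 3. The hippocampus is therefore the one opposite the injection, and each library is a mixture of several mice and of every cell type in its fraction. Libraries held 12058875 to 45428465 counted reads. Sham glia 1 and kainate glia 2 were made from 0.05 ng of RNA and the others from 1 ng. Values are CPM, counts scaled to the size of the library after correction with edgeR's TMM factors. The labels held against markers, with 12 neuronal markers summing to 4158 to 8867 CPM in neurons and 832 to 1401 CPM in glia, and with all 12 microglial markers and 10 of 12 astrocyte markers called higher in glia.

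Complement is a cascade of blood and tissue proteins that marks surfaces for removal. In the classical pathway C1q binds a target, the attached proteases C1r and C1s cleave C4 and C2, and the resulting enzyme cleaves C3, whose fragments coat the target or act on receptors such as C3aR. Cleavage of C5 further down releases the ligand of C5aR1, and C1 inhibitor blocks C1r and C1s. In the brain microglia are the main source of C1q and carry both receptors, astrocytes make C4 and C3, and C1q and C3 are known for their part in the removal of synapses.

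The chains of C1q are encoded side by side on chromosome 4 of mm10, on the minus strand, with C1qb at chr4:136880129-136886187, C1qc at chr4:136889804-136893065 and C1qa at chr4:136895917-136898803. No exon of another gene overlapped the exons of any of the 9 genes. Promoter windows of 300 bases (250 before and 50 after the annotated start, RefSeq, GRCm38.p6) were at hand for 6 of the 9 genes, namely C1qb, C1qc, C1ra, C3, C3ar1 and C5ar1. They were searched on both strands for GAGGAA, the core of sites for the myeloid factor PU.1, for TTCNNNGAA, the spacing of STAT sites, and for TTNNGCAA, a C/EBP-like site, none of which overlap one another in these windows. The PU.1 core stood in 3 of the 6 windows and in 28.3% of all 32851 promoters. The STAT spacing stood in 1 of 6 windows against 8.3% of all promoters, and the C/EBP-like site in 2 of 6 against 10.8%. The windows of C1qb and C1qc are printed because their levels moved together in the glial libraries. That of C1ra is printed because it held all 3 motifs while its level did not differ detectably between neurons and glia. That of C5ar1 is printed because it held none while its level was among the most unequal. Each window is written 5′ to 3′ on the strand of the gene, with motif matches in capitals. They lie at chr4:136886151-136886450 on the minus strand for C1qb, at chr4:136892865-136893164 on the minus strand for C1qc, at chr6:124512371-124512670 on the plus strand for C1ra and at chr7:16259289-16259588 on the minus strand for C5ar1.
C1qb: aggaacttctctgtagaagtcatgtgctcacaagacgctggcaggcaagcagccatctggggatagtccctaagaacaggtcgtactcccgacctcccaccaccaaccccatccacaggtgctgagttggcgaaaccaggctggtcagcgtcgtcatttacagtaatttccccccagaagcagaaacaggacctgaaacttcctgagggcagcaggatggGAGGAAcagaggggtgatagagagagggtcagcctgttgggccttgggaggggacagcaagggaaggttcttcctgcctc
C1qc: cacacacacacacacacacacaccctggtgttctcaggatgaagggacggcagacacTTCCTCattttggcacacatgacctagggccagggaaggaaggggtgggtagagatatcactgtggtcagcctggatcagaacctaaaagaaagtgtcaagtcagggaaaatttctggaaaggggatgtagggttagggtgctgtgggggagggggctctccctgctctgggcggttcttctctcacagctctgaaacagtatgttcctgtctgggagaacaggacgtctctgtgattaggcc
C1ra: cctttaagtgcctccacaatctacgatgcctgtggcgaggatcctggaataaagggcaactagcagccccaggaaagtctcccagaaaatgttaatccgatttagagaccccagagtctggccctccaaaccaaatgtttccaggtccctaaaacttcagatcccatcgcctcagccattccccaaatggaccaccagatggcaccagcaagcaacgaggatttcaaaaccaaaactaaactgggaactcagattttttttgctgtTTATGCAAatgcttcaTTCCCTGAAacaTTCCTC
C5ar1: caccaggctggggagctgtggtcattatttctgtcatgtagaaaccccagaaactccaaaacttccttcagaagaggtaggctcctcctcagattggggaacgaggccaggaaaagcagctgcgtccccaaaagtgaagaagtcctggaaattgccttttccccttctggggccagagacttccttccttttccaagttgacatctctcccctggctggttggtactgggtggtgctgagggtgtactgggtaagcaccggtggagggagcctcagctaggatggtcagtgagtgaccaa
In C1qb the capitals mark GAGGAA, in C1qc its reverse complement TTCCTC, and in C1ra, in order, the C/EBP-like site, the STAT spacing and TTCCTC. A match is a run of letters and not a bound site, and binding was not measured.

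Between the sorted nuclei the list split into 6 genes that were far higher in glia and 3 that were not. C1qc, C1qb and C1qa were higher in glia by log2 fold changes of 5.38 (SE 0.52), 5.37 (SE 0.56) and 5.23 (SE 0.54), averaged over both treatments. C4b was higher by 4.94 (SE 0.54), C5ar1 by 4.69 (SE 0.56) and C3ar1 by 3.69 (SE 0.41) on the same scale. For these 6 the FDR, the p of edgeR's quasi-likelihood test after Benjamini-Hochberg adjustment over all genes, ran from 3.3e-05 to 5.4e-05, and in each of them every glial library lay above every neuronal one, as for 6.31% of all genes tested. At the threshold of the study, an FDR of 0.25, 20.4% of all genes were higher in glia and 16.8% higher in neurons. The median log2 fold change of the 9 genes was 4.69, beside 0.47 over all genes tested. Because these are bulk libraries, fewer cells of a type and less RNA per cell cannot be told apart in any comparison here.

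The remaining 3 genes were not called. The log2 fold change of glia over neurons was 0.04 for C1ra (SE 0.45, FDR 0.956), 0.52 for Serping1 (SE 0.37, FDR 0.363) and 0.94 for C3 (SE 0.80, FDR 0.443), and the libraries of the fractions overlapped for all 3. The 95% intervals reached from -0.93 to 1.00 for C1ra, from -0.28 to 1.33 for Serping1 and from -0.79 to 2.66 for C3. Neurons and glia with one number came from one pool, and with the pool as a block C3 (0.93, FDR 0.138) and Serping1 (0.44, FDR 0.243) were also called higher in glia, which makes 8 of 9, beside 34.8% of all genes in that fit. C1ra was not called with the pool as a block either (log2 fold change -0.20, FDR 0.696).

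Per kilobase of exon, C1qa and C1qb led in every group. In sham glia the mean level ran from 214 CPM per kb for C1qb and 213 for C1qa over 132 for C1qc, 33.1 for C4b, 11.8 for C5ar1, 8.74 for C3ar1 and 3.00 for Serping1 to 0.666 for C1ra and 0.620 for C3. The pair of sham glia libraries differed widely, and the neighbours in this order whose ranges did not overlap were C4b over C5ar1 (23.6 to 42.6 against 2.76 to 20.9 CPM per kb) and Serping1 over C1ra (1.68 to 4.32 against 0.300 to 1.03). In kainate glia C4b moved above C1qc in the order of the means, with 104 against 98.8 CPM per kb, and their ranges overlapped. In that group the neighbours without overlap were C1qc over C5ar1, C3ar1 over Serping1, and Serping1 over C1ra. In sham neurons the order of the means was C1qa, C1qb, C1qc, Serping1, C4b, C3ar1, C1ra, C5ar1 and C3, from 4.46 down to 0.369 CPM per kb, and only C1qb and C1qc were neighbours without overlap. In kainate neurons the means ran from 6.34 CPM per kb for C1qb to 0.301 for C3, and the one pair of neighbours without overlap was C1qa over C1qc.

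**Figure D1:**
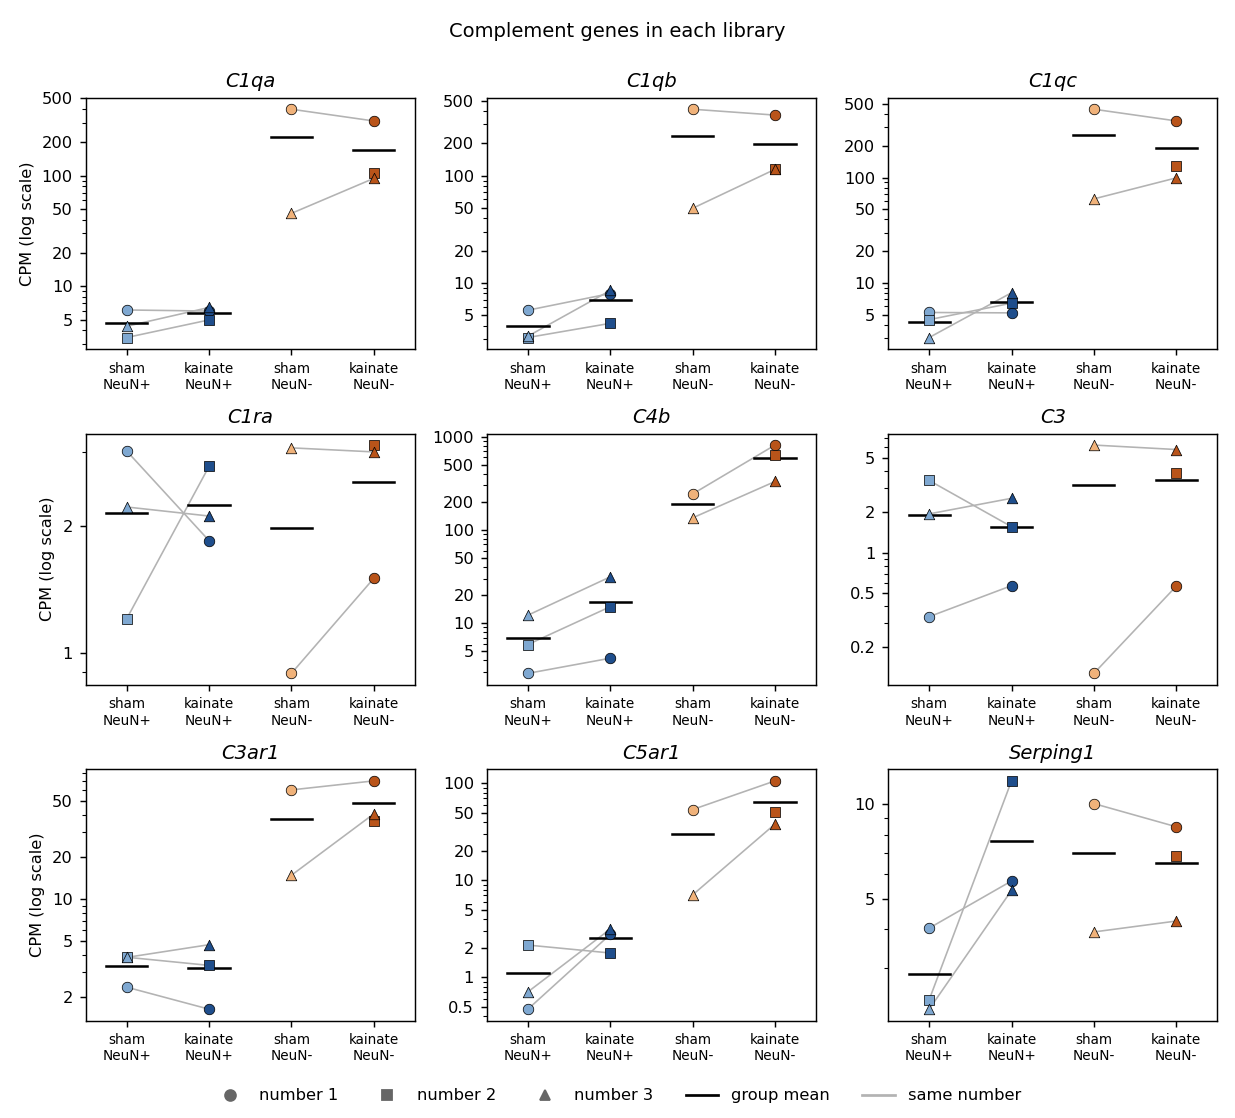
Level of each of the 9 genes in every library, in CPM on a log scale, by group. Points are libraries, shapes are sample numbers, grey lines join sham and kainate libraries of one number within a cell type and black bars are group means. C4b was higher in the kainate library in all 5 joined pairs, and C1qa, C1qb and C1qc were at 45.6 CPM or above in every glial library and at 8.51 CPM or below in every neuronal one.

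C1q is the recognition part of the classical pathway, and its chains stood at like levels in each library. C1qa was at 398 and 45.6 CPM in sham glia 1 and 3, and at 311, 107 and 94.3 CPM in kainate glia 1, 2 and 3. C1qb was at 416 and 49.6 CPM in sham glia and at 367, 114 and 115 CPM in kainate glia. C1qc was at 445 and 62.7 CPM in sham glia and at 345, 128 and 99.3 CPM in kainate glia. For all 3 chains the highest and the lowest glial value were both sham libraries, so the kainate values lay inside the sham range. The fitted log2 fold changes of kainate over sham in glia were -0.38 for C1qa (95% interval -1.87 to 1.12), -0.23 for C1qb (-1.78 to 1.32) and -0.41 for C1qc (-1.85 to 1.02), and none was called. With the sample numbers as a replicate block, as described below for neurons, the sign turned for all 3 chains, to 0.34 for C1qa (-0.16 to 0.85), 0.51 for C1qb (-0.01 to 1.02) and 0.14 for C1qc (-0.36 to 0.64), again with no call (FDR 0.504 to 0.991). Number 1 was lower and number 3 higher after kainate for each chain, and no direction is given for C1q in glia.

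In neurons the C1q genes were low. C1qa was at 6.11, 3.45 and 4.35 CPM in sham neurons 1, 2 and 3 and at 5.98, 4.97 and 6.44 CPM in kainate neurons. C1qb was at 5.57, 3.10 and 3.19 CPM in sham and at 7.97, 4.20 and 8.51 CPM in kainate neurons, and C1qc at 5.24, 4.48 and 3.03 against 5.19, 6.42 and 8.06 CPM. The groups overlapped for each chain. C1qb was higher after kainate in all 3 neuronal pairs of one number, with a log2 fold change of 0.81 (SE 0.67), not called, without the numbers, and of 0.80 (SE 0.23, FDR 0.0425) with them as a replicate block. C1qc was also called with the block (0.66, SE 0.23, FDR 0.141) and C1qa was not (0.37, SE 0.22, FDR 0.752). Neither C1qb (0.48) nor C1qc (0.28) was called in the blocked fit without sham or kainate neurons 3. The summed level of 12 microglial markers in neurons ran from 55.1 to 75.2 CPM in sham libraries and from 77.6 to 88.9 CPM in kainate libraries. Csf1r alone was at 7.99 to 12.1 CPM in sham and 16.6 to 30.2 CPM in kainate libraries, and without it the summed ranges overlap. In both groups 11 of the 12 markers had a mean of 1 CPM or more, and Tyrobp was below it. With the block 2 of the 12 were called higher, Csf1r (1.12, FDR 3.36e-05) and Fcrls (0.75, FDR 0.0915), and 1 lower, P2ry12 (-0.63, FDR 0.216), beside 3.19% and 1.9% of all genes, and the median log2 fold change of the 12 was 0.05. The part of microglial RNA in the C1q values of neurons was not tested.

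C4 and C3 are the central components that are cleaved and deposited on a target. Of the 9 genes C4b had the lowest FDR in the blocked fits of kainate against sham in both cell types. In glia it was at 243 and 135 CPM in sham 1 and 3 and at 813, 630 and 330 CPM in kainate 1, 2 and 3, so the lowest kainate value exceeded the highest sham value, which held for 4.7% of all genes in glia. In neurons C4b was at 2.89, 5.89 and 12.2 CPM in sham 1, 2 and 3 and at 4.20, 15.0 and 31.3 CPM in kainate libraries. The neuronal groups overlapped, yet within each number the kainate library was higher. The log2 ratio of kainate to sham within a number was 0.54 to 1.74 over the 5 pairs, and 7.16% of all genes were higher in all 5 pairs. Without the numbers the log2 fold change was 1.65 in glia (SE 0.76, 95% interval 0.016 to 3.28) and 1.27 in neurons (SE 0.66, -0.14 to 2.68), both at an FDR of 1.00. The neuronal value was 0.46 without kainate neurons 3 and 1.93 without sham neurons 3. With the numbers as a replicate block it was 1.52 in glia (SE 0.23, FDR 4.48e-06) and 1.16 in neurons (SE 0.20, FDR 7.77e-05). C4b was called in both cell types in all 11 blocked fits that left out 1 library, with log2 fold changes of 1.27 to 1.75 in glia and 1.03 to 1.36 in neurons. Glia have only 2 pairs, and in the blocked fit of all libraries the spread is shared with neurons and comes mostly from them. Glial pair 1 sets a sham library of 0.05 ng of RNA against a kainate library of 1 ng. Treatment and RNA input cannot be told apart in that pair, for any blocked glial value here. Without a glial library of number 1 or 3 a single pair remains and the spread comes from neurons alone. Such fits say little about the spread in glia.

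C4b (chr17:34728380-34743882, minus strand) has a near-identical copy, C4a, and reads that fit both were not counted, so the share of each gene is uncertain. C4a alone was called in glia with the block (1.32, SE 0.26, FDR 0.00058) and not in neurons (0.27, SE 0.21, FDR 0.90). With the counts of both genes added, the blocked log2 fold change was 1.5 in glia (FDR 4.22e-06) and 0.66 in neurons (FDR 0.0329). Among cell type markers, the summed level of 12 astrocyte markers was 1849 to 6595 CPM in sham glia and 854 to 4646 CPM in kainate glia, ranges that overlap. Within the numbers that sum was lower after kainate in both glial pairs, 4646 against 6595 CPM and 854 against 1849 CPM. Of the 12 astrocyte markers, 8 were called lower and 1 higher in glia in the blocked fit (median log2 fold change -1.16), beside 2.86% and 2.93% of all genes. The 1 called higher was Gfap, a marker of reactive astrocytes (1.77, FDR 2.07e-06), and 6 of 6 markers of oligodendrocyte precursors and 5 of 10 of mature oligodendrocytes were called lower. The part of a changed mixture of cells in the C4b values of glia was not tested. In neurons that sum was 551 to 661 CPM in sham and 652 to 761 CPM in kainate libraries, and 5 of the 12 were called higher and 3 lower there with the block. Those higher included Sox9 (1.71, FDR 2.11e-08), Gfap (1.78, FDR 3.17e-08) and Aqp4 (1.4, FDR 5.73e-06). Slc4a4, another of the 12, went the other way, at 129 to 212 CPM in sham and 67.6 to 86.3 CPM in kainate neurons. Over all 12 the blocked median in neurons was 0.28. The part of astrocyte RNA in the C4b values of neurons was not tested.

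C3 (chr17:57203970-57228136, minus strand) was not called in either cell type. It rested on 5, 119 and 60 reads in sham neurons, 8, 61 and 56 in kainate neurons, 2 and 126 in sham glia and 9, 115 and 206 in kainate glia. In CPM these were 0.336, 3.42 and 1.93 in sham and 0.569, 1.55 and 2.52 in kainate neurons, and 0.128 and 6.25 in sham and 0.564, 3.90 and 5.79 in kainate glia. The libraries numbered 1 were the lowest of every group, and the groups overlapped. The log2 fold change was -0.30 in neurons (SE 1.08) and 0.10 in glia (SE 1.2), with 95% intervals of -2.62 to 2.03 and -2.47 to 2.68. A change of C3 in either direction was not detectable with this spread, and with the numbers as a block the values were -0.18 (FDR 1.00) and 0.41 (FDR 0.982).

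The receptor genes C3ar1 and C5ar1 encode receptors of the small fragments that C3 and C5 release. C5ar1 (chr7:16246743-16259540, minus strand) was at 53.7 and 7.09 CPM in sham glia 1 and 3 and at 106, 50.5 and 38.1 CPM in kainate glia. It was at 0.470, 2.15 and 0.709 CPM in sham neurons and at 2.77, 1.78 and 3.15 CPM in kainate neurons. In both cell types the groups overlapped through 1 sham library, number 1 in glia and number 2 in neurons, and 4 of 5 pairs of one number were higher after kainate. With the block the log2 fold change was 1.68 in glia (SE 0.34, FDR 0.000894) and 1.18 in neurons (SE 0.35, FDR 0.0460), against 1.09 (SE 0.76) and 1.15 (SE 0.71), neither called, without it. In glia C5ar1 was not called in the blocked fit without kainate glia 3 (0.99, FDR 0.334), and it was 0.98 without sham glia 3 and 2.43 without sham glia 1. In neurons, where it rested on 7 to 75 reads a library, it was not called without either library of number 1 (0.80) or of number 3 (0.69), and it was 2.28 without either library of number 2. The microglial markers in neurons are given above with C1q, and the part of microglial RNA in the C5ar1 values of neurons was not tested.

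C3ar1 (chr6:122847138-122856161, minus strand) was at 60.4 and 14.8 CPM in sham glia and at 70.1, 36.3 and 40.7 CPM in kainate glia, and both glial pairs were higher after kainate. In neurons it was at 2.35, 3.85 and 3.84 CPM in sham and at 1.64, 3.36 and 4.73 CPM in kainate libraries, and only number 3 was higher. The groups overlapped in both cell types. The blocked log2 fold change was 0.83 in glia (SE 0.29, FDR 0.138) and -0.09 in neurons (SE 0.26, FDR 1.00), and the glial call was lost without sham glia 3 (0.21) or kainate glia 3 (0.22), while the value was 1.46 without sham glia 1 and 1.43 without kainate glia 1. Without the block it was 0.38 in glia (SE 0.57) and -0.04 in neurons (SE 0.52), with no call. Beside the blocked calls of both receptors in glia, the summed microglial markers ran from 845 to 4095 CPM in sham and from 784 to 2045 CPM in kainate libraries, with none of the 12 below a mean of 1 CPM. In the blocked fit 4 of these 12 markers were called lower and 1 higher after kainate, beside 2.86% and 2.93% of all genes. Their sum was lower after kainate in both glial pairs, 2045 against 4095 CPM and 784 against 845 CPM. Markers of border or infiltrating myeloid cells, which also carry these receptors, summed to 48.1 to 77.6 CPM in sham and 42.3 to 68.1 CPM in kainate glia. This sum was also lower after kainate in both glial pairs, 68.1 against 77.6 CPM and 42.7 against 48.1 CPM. Pf4, S100a8 and S100a9 were below a mean of 1 CPM in both groups.

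Last come the inhibitor of C1 and one of its proteases. Serping1 (chr2:84765387-84775444, minus strand) was at 4.03, 2.38 and 2.22 CPM in sham neurons and at 5.69, 11.9 and 5.31 CPM in kainate neurons, so the groups did not overlap, as for 4.26% of all genes in neurons. It was at 10.0 and 3.92 CPM in sham glia and at 8.47, 6.82 and 4.24 CPM in kainate glia, where the groups overlapped. The log2 fold change in neurons was 1.42 (SE 0.51, FDR 1.00) without the numbers and 1.38 (SE 0.33, FDR 0.00613) with the block. In the blocked fit it was not called without kainate neurons 2, the highest library (0.89, FDR 0.256), and it was 0.89 without sham neurons 2. In glia it was -0.10 (SE 0.56) without and -0.07 (SE 0.38) with the block, neither called. The difference between the cell types, glia minus neurons, was -1.52 (SE 0.75, FDR 1.00) without and -1.45 (SE 0.50, FDR 0.283) with the block, which did not pass the threshold.

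C1ra (chr6:124512405-124523443, plus strand) was at 3.02, 1.21 and 2.22 CPM in sham and 1.85, 2.78 and 2.12 CPM in kainate neurons, and at 0.895 and 3.07 CPM in sham and 1.51, 3.12 and 3.01 CPM in kainate glia. The groups overlapped in both cell types, and 2 of 5 pairs were higher after kainate. The log2 fold change was 0.08 in neurons (95% interval -1.21 to 1.36) and 0.36 in glia (-1.10 to 1.81), and no fit with the block called it. Its near-identical copy C1rb leaves its count uncertain, and the sum of both genes was not called in any fit of kainate against sham.

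**Figure D2:**
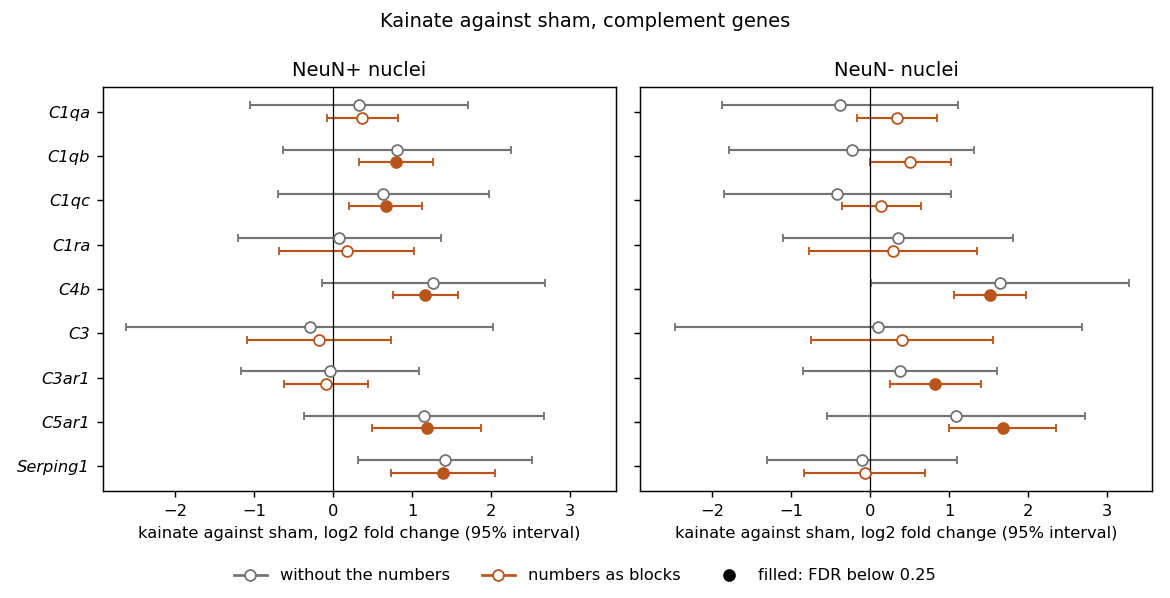
Log2 fold change of kainate over sham for the 9 genes, neurons on the left and glia on the right, with 95% intervals. Grey marks are the fit without the sample numbers, orange marks the fit with the numbers as a replicate block, and filled marks passed an FDR of 0.25. No grey mark is filled, while 5 orange marks are filled in neurons and 3 in glia, C4b and C5ar1 in both.

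Counted over the list, kainate against sham gave 0 calls of 9 in neurons and 0 of 9 in glia by edgeR without the numbers, beside 0.165% and 0.101% of all genes tested. At an unadjusted p under 0.05 there was 1 gene in each, Serping1 in neurons and C4b in glia, and DESeq2's Wald test also called 0. The median log2 fold change of the 9 genes was 0.63 in neurons and 0.10 in glia, beside -0.015 and 0.023 over all genes. With the replicate block 5 of 9 were called in neurons (C4b, Serping1, C1qb, C5ar1 and C1qc) and 3 of 9 in glia (C4b, C5ar1 and C3ar1), all higher after kainate, beside 3.19% and 2.93% of all genes called higher. In the blocked fit the medians were 0.66 in neurons and 0.41 in glia, beside -0.0010 and 0.11 over all genes. For the difference of the kainate effect between glia and neurons 0 of 9 were called by edgeR, 0 had an unadjusted p under 0.05 and DESeq2 called 0, beside 0.00246% of all genes. The block called 0 of 9 there as well, beside 1.94% of all genes, although 1 gene was above and 1 below 0 at an unadjusted p under 0.05, C3ar1 (0.91, FDR 0.572) and Serping1. A larger rise of any of the 9 genes in one cell type than in the other was therefore not shown.

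Of 55 other complement genes, listed by role, 54 passed the filter, the exception being Cfd. Without the block 2 of the 54 were called higher after kainate in neurons, 1 in glia and none lower, beside 0.165% and 0.101% of all genes called in either direction. Both genes are pentraxins, which are ligands of C1q. Ptx3, a secreted pattern recognition protein, was at 1.75, 0.574 and 0.741 CPM in sham and 8.18, 5.79 and 20.7 CPM in kainate neurons, and at 3.64 and 2.08 CPM in sham and 176, 60.0 and 31.6 CPM in kainate glia. Its log2 fold change was 3.56 in neurons (SE 0.72, FDR 0.180) and 4.97 in glia (SE 0.89, FDR 0.142). Nptx2, a synaptic pentraxin released by active neurons, was at 53.2, 21.5 and 20.8 CPM in sham and 537, 217 and 299 CPM in kainate neurons, a log2 fold change of 3.46 (SE 0.53, FDR 0.0566). In glia Nptx2 was at 11.6 and 5.60 CPM in sham and 37.2, 32.9 and 57.8 CPM in kainate libraries, which was called with the block (2.51, FDR 3.48e-09) and not without it (2.31, FDR 0.740). The 12 neuronal markers summed to 832 to 1328 CPM in sham and 1031 to 1401 CPM in kainate glia. The part of neuronal RNA in the Nptx2 values of glia was not tested. For both pentraxins the kainate values exceeded the sham values without overlap in both cell types. The calls without the block rested on single libraries. In neurons Nptx2 was lost without sham neurons 2 (FDR 0.583) or 3 (FDR 0.523), and Ptx3 was lost without either of these, without any 1 of the kainate neuron libraries or without kainate glia 2 (FDR 0.288 to 1.00). In glia Ptx3 was lost without sham glia 1 (FDR 0.406), kainate glia 1 (FDR 0.276) or kainate glia 2 (FDR 0.26). It was also lost without both libraries of low RNA input (FDR 0.737), in a fit of glia alone (FDR 0.711) and with RNA input as a covariate (FDR 0.320), which ended its call in neurons as well (FDR 0.318). With the block both genes were called in both cell types in all 11 fits that left out 1 library, with the same limit in glia as for C4b.

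With the block, 4 of the 54 were called higher and none lower in neurons, beside 3.19% and 1.9% of all genes. The 4 were Ptx3, Nptx2, the integrin gene Itgb2 (0.77, FDR 0.0997) and Csmd2 (0.62, FDR 0.0465), which encodes a membrane protein of the family of complement inhibitors. In glia 3 were called higher, Ptx3, Nptx2 and C4a, and 2 lower, Vtn (-1.02, FDR 0.0397), the gene of vitronectin, an inhibitor of the terminal complex that pericytes express, and Csmd3 (-0.83, FDR 0.0271), beside 2.93% of all genes called higher and 2.86% called lower in glia. For the difference of the kainate effect between glia and neurons, the block called C4a higher in glia (1.05, FDR 0.180) and Vtn lower (-1.28, FDR 0.157), 2 of 54 beside 1.94% of all genes, and neither was called without it. Itgb2, Csmd2, Vtn, Csmd3 and C4a are named after their values were seen. The 7 terminal components, 9 lectin pathway genes and 2 alternative pathway genes tested had no call in either cell type, with or without the block.

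Between the fractions 15 of the 54 were higher in glia and 11 higher in neurons, beside 20.4% and 16.8% of all genes. With the pool as a block 25 were higher in glia and 12 in neurons, beside 34.8% and 24.9% of all genes. Of 9 receptor genes 5 were called higher in glia, and 0 were called higher in neurons without the block and 1 with the pool as a block. The most unequal was Itgam (5.11, SE 0.49, FDR 3.3e-05), the alpha chain of complement receptor 3 on microglia. Regulators went both ways, with 5 of 17 higher in glia and 6 higher in neurons. Csmd1, a membrane regulator, was the most unequal of those in neurons (-2.69, SE 0.30, FDR 4.2e-05). Nptx1, a neuronal pentraxin, was the furthest on the neuronal side of all 54 (-3.15, SE 0.35, FDR 4.2e-05). Neither Itgam, Csmd1 nor Nptx1 was called after kainate, with or without the block.

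**Figure D3:**
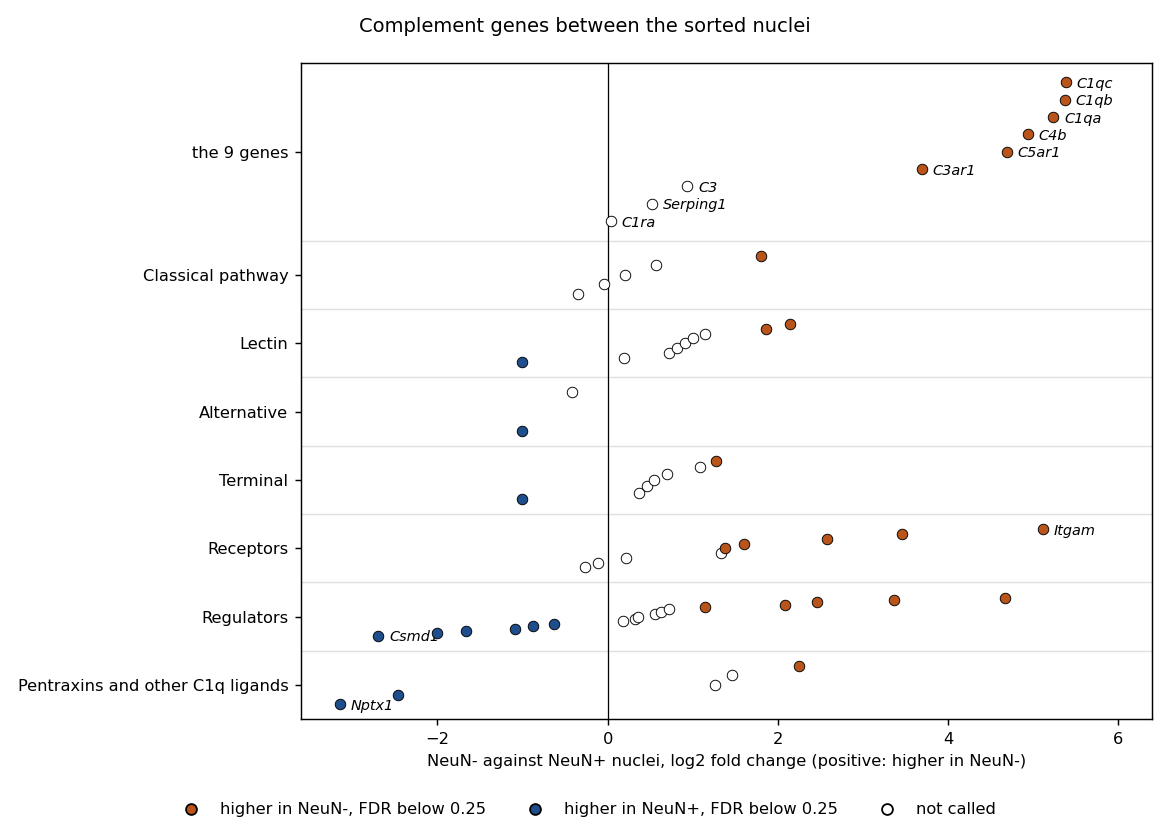
Log2 fold change of NeuN- over NeuN+ nuclei for the 9 genes and 54 other complement genes, arranged by role. Each point is a gene, orange points passed an FDR of 0.25 as higher in glia and blue points as higher in neurons. The C1q chains reach 5.23 to 5.38, and Nptx1 lies at -3.15.

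Over the 11 libraries and 24713 genes with a mean of at least 1 CPM, the genes whose log2 CPM followed the mean of the C1q chains most closely were Adssl1 (Pearson r = 0.995), Fcgr1 (0.995), Ctss (0.994), Cldn11 (0.994) and Car2 (0.993). For C4b they were Gm13684 (0.994), Galnt6 (0.992), Atp8b1 (0.991), Tnfrsf1a (0.991) and Gm42602 (0.989). These points share their libraries and their separation into neurons and glia.

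**Figure D4:**
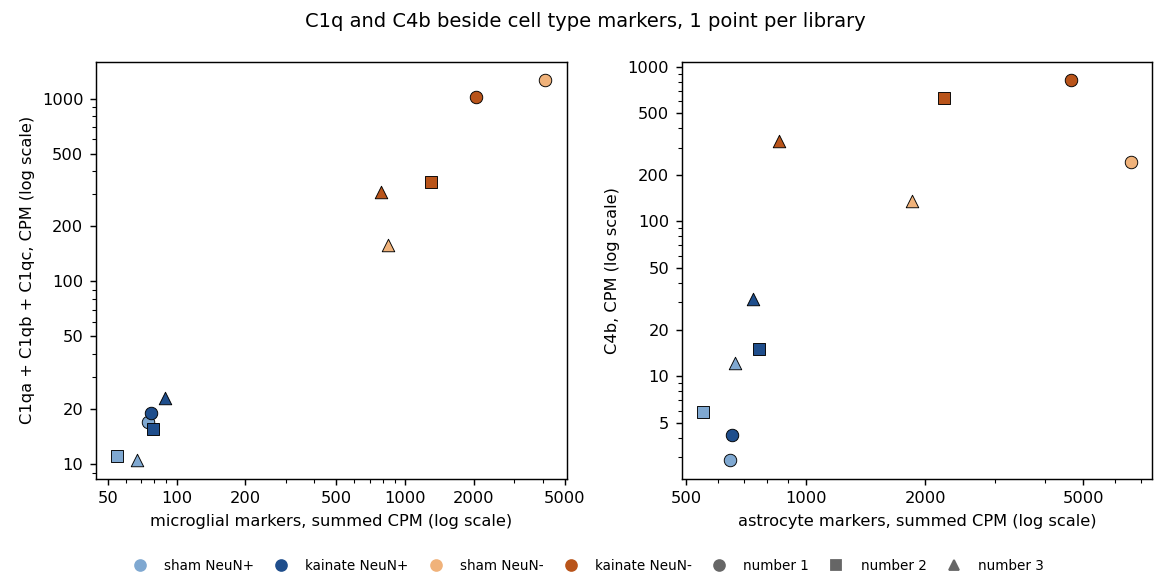
Left, summed CPM of C1qa, C1qb and C1qc against the summed CPM of 12 microglial markers. Right, CPM of C4b against the summed CPM of 12 astrocyte markers, all axes on log scales, 1 point per library, colours by group and shapes by number. Kainate glia lie above sham glia for C4b, at 330 to 813 against 135 to 243 CPM, while their astrocyte sums of 854 to 4646 CPM overlap the sham range of 1849 to 6595 CPM.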

How the data were processed

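Messenger RNA of sorted hippocampal nuclei was sequenced in 11 libraries, and 11 bisulfite samples of the series were not used here. Per the study's methods and the submitters' processing notes, the authors trimmed reads with Trim Galore 0.4.3, aligned the trimmed reads to mm10 with Rsubread and ran featureCounts against GENCODE M16, keeping reads that mapped to 1 place. The kit does not mark strand, so strand was not used. The label protocol names right hippocampi, whereas the titles and the methods give the left ones. The deposited values are raw counts per gene, not normalized. Symbols were matched for 53274 of 53379 identifiers. Positions and exon lengths came from GENCODE on GRCm38, the same build.

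Counts were filtered with filterByExpr (minimum count 10, minimum total 15), scaled by TMM and fitted in 1 edgeR 4.0.16 quasi-likelihood model with a mean per group over all 11 libraries (R 4.3.3, limma 3.58.1, 7 residual degrees of freedom, common biological coefficient of variation 0.600). The study's threshold, an FDR of 0.25, was used. The tests, all two-sided, compared kainate with sham in each cell type, the difference of these effects, and NeuN- with NeuN+ nuclei. Libraries of one cell type are separate pools of mice, while neurons and glia of one number share a pool. Deviations from the group means correlated in each kainate and sham pair of one number (0.643, 0.161 and 0.491 in neurons, 0.760 and 0.787 in glia). The numbers were therefore taken to pair the samples, although the labels state no shared day or litter. The block was thus chosen from these same data. With 2 sham glia libraries the deviations of one mirror those of the other, so the 2 glial correlations are not separate evidence. The libraries numbered 1 had the fewest genes with a count in every group (37158 to 41933), and a technical source of the correlations was not tested. Blocked values, from fits with 3 residual degrees of freedom, stand beside the unblocked ones where they change the call or the sign. Kainate glia 2 has no sham partner and adds nothing to the blocked glial contrast. Every blocked glial value therefore rests on 2 pairs, and in number 1 the sham library had 0.05 ng of RNA and the kainate library 1 ng.

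The named genes were the 9 members, other complement genes called in a kainate comparison or the difference, the 2 most unequal of those called between fractions in each direction, and the 5 genes most like C1q and like C4b. One gene that this rule names is not reported here. The members and lists were chosen with earlier results of these data known. Fits were tested on simulated data. Alternatives were DESeq2 1.42.0 (test and size factors), other filters, all identifiers, other dispersion options, an FDR of 0.05, an RNA input term, leaving out libraries, separate fits and replicate blocks.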

Additional observations from a re-analysis of the deposited data

How the results depend on the processing

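Over 1054 gene values under the other settings tried, 1017 kept their direction or stayed uncalled on the same side of the threshold, 18 lost and 19 gained a call, and 0 called values reversed. Of the differences that were called in neither setting, 71 changed sign, among them those of C1q in glia. With the replicate block, 5 members were called in neurons and 3 in glia, against 0 without it. The replicate block with all libraries changed no call of the 9 genes for the difference between cell types. Of its 11 fits that left out 1 library, 4 called Serping1, and 1 each called C1qb, C1qc and C3ar1, for that difference. Leaving out 1 library at a time gave 0 to 1 member called in glia without the block, the 1 being C3 without sham glia 3 (log2 fold change 4.69, FDR 0.249). It gave 0 members in neurons and for the difference between cell types, and 6 to 7 between the fractions. The 6 calls between the fractions held in all other settings run. Alternatives added after seeing the data combined the replicate block with leaving out 1 library and summed near-identical copies. There C1qb in glia, uncalled at -0.23 in the fit of all libraries without the block, was called higher at 0.50 without sham or kainate neurons 2, at 1.21 without sham glia 1 and at 1.18 without kainate glia 1, and C1qa, uncalled at -0.38, at 1.05 and 1.02 without sham or kainate glia 1. The cause was not tested. Of the blocked calls of members after kainate, those of C4b held without any 1 library (without a paired glial library the spread comes from neurons alone), and all others except Serping1 in neurons were lost without a library numbered 3. The sham glia group of 2 libraries and the low counts of C3, C5ar1 and C1q in neurons limit these values. P-values without a block cover the spread between pools of mice. Those with the replicate block cover the spread left within the numbers, which is shared by both cell types and comes mostly from neurons.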

Other observations

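Set against astrocyte markers for C4b and microglial markers for C5ar1, both genes separated the glial groups. This is a description chosen after the values were seen and given without a test, and the cell type that each gene's RNA came from was not tested. C4b amounted to 3.68% and 7.28% of the summed astrocyte markers in sham glia 1 and 3, and to 17.5%, 28.3% and 38.7% in kainate glia 1, 2 and 3. C5ar1 amounted to 1.31% and 0.839% of the summed microglial markers in sham glia, and to 5.19%, 3.88% and 4.86% in kainate glia. In neurons the groups overlapped for both genes. There C4b ran from 0.449% to 1.84% of the astrocyte markers in sham and from 0.644% to 4.26% in kainate libraries. C5ar1 ran from 0.625% to 3.91% of the microglial markers in sham and from 2.26% to 3.57% in kainate neurons. The C1q chains together amounted to 30.7% and 18.7% of the microglial markers in sham glia and to 50.03%, 26.9% and 39.3% in kainate glia. Both glial pairs of one number were higher after kainate, and the groups overlapped through kainate glia 2, which has no sham partner. In neurons C1q stood at 22.5%, 20.0% and 15.8% of the microglial markers in sham libraries and at 24.7%, 19.8% and 25.9% in kainate libraries, which also overlap. In the blocked fit 4 of the 12 microglial markers were lower and 1 higher in glia after kainate, with a median log2 fold change of -0.55. The lower ones included P2ry12 (-2.10, FDR 1.38e-08), a homeostatic marker chosen after its values were seen. The microglial sum, a denominator here, was lower after kainate in both glial pairs, 2045 against 4095 CPM and 784 against 845 CPM. Of the 12 astrocyte markers in the same fit, 8 were lower and 1 higher, Gfap (1.77, FDR 2.07e-06), and their sum is the denominator of the C4b percentages.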
